A study of Mus musculus with 12 samples.

Results

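The type I interferon response genes described here are 41 named genes, made up of interferon-stimulated genes and the factors that switch them on, which were picked by symbol from the 20661 genes counted in every library. They were followed through RNAseq and ribosome profiling of mouse embryonic fibroblasts (MEFs), connective tissue cells put into culture from embryos, in a study that asked how loss of the tumor suppressor ARF alters translation. WT-shSCR MEFs were wildtype and carried a scrambled short hairpin RNA (shRNA), WT-shARF MEFs were wildtype and carried a hairpin against ARF, and *Arf*-/--shSCR MEFs came from knockout mice and carried the scrambled hairpin. In the knockout the first exon of the ARF transcript of *Cdkn2a* is replaced by a neo cassette (strain B6.129X1-*Cdkn2a*tm1Cjs/KaiJ). All 3 groups were therefore transduced with a lentivirus and selected with puromycin, all were at passage 4, and neither the labels nor the methods name any added interferon. The labels give C57BL/6J for the wildtype cells and the methods give B6129SF2/J. Each group had 2 replicates in each assay, 12 libraries in all, and the sources used here do not say whether replicates were separate cultures, so p-values measure the spread between these libraries only.

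Type I interferons are small secreted proteins that cells release when sensors in the cytoplasm or in endosomes meet foreign or misplaced RNA or DNA. They bind the receptor IFNAR1-IFNAR2 on the same or on neighbouring cells, kinases at the receptor, TYK2 among them, then activate STAT2, which acts with IRF9 in a transcription factor complex that binds the interferon-stimulated response element (ISRE) in the promoters of target genes. Fibroblasts are the classic producers of interferon beta and keep a low level of many target genes without any added interferon. The targets block viral entry, RNA copying and translation, and several of them, such as the sensors and transcription factors, also strengthen the response itself.

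*Cdkn2a*, the gene that encodes ARF and INK4A, was read first because it checks the labels. The normalized RNA count was 44.8 and 42.0 CPM for WT-shSCR, 27.7 and 32.2 CPM for *Arf*-/--shSCR, and 643.8 and 668.1 CPM for the libraries labelled WT-shARF, where CPM are read counts divided by the library's total on genes, after scaling with edgeR's TMM factors, and brought to a common depth. Its footprints, the fragments that ribosomes protect, were 93.4 and 66.2, 39.6 and 34.4, and 533.3 and 740.6 CPM. The WT-shARF libraries thus held more *Cdkn2a* RNA than the control, against their label, and counts per gene do not separate ARF from INK4A. Within these counts, each direction given for WT-shARF therefore rests on the label. The paper itself shows knockdown of ARF protein by immunoblot, and it cites earlier work for a hairpin that leaves INK4A unchanged. Markers of other cells also moved with the groups. A list of 20 macrophage markers summed to 838 to 864 CPM of RNA in WT-shSCR, 339 to 433 in the libraries labelled WT-shARF and 78.3 to 131.8 in *Arf*-/--shSCR MEFs. In the knockout against WT-shSCR, 17 of the 19 macrophage markers tested fell in RNA and 18 of 19 fell in footprints (edgeR's quasi-likelihood test, adjusted p under 0.05), and in WT-shARF 7 of 19 and 10 of 19 fell. The defining markers *Csf1r* and *Adgre1* kept reads in every library. Mesothelial and epithelial markers rose in the knockout, 5 of 8 tested in RNA and 7 of 8 in footprints. In WT-shARF against WT-shSCR only 2 of the 10 listed passed edgeR's filter on low counts, in either assay. Most of the 8 thus passed only through the knockout, where they were high, so their calls are not independent of the filter. Macrophage markers with few knockout reads, such as *Tyrobp* and *Cd53* in RNA, likewise passed only through WT-shSCR. Macrophages use the interferon pathway too, and the part of either cell type in the values of the interferon genes was not tested. In such bulk samples fewer cells of a type and less RNA per cell cannot be told apart. The 12 fibroblast markers had reads in every library, and their sum moved as well. In the knockout their mean sum was 0.728 of the control in RNA and 0.752 in footprints, and in WT-shARF it was 0.972 and 1.11 of the control. Single fibroblast markers did not move together. In the knockout 2 of 11 tested rose and 2 fell in RNA, and 4 of 12 rose and 4 fell in footprints. Their median log2 fold change was -0.04 in both assays, so the sum does not measure a share of cells.

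The interferon genes were weakly expressed in all 3 groups. Their RNA summed to 303 and 290 CPM for WT-shSCR, 342 and 283 CPM for WT-shARF and 237 and 248 CPM for *Arf*-/--shSCR. Their footprints summed to 306 and 323 CPM for WT-shSCR, 394 and 349 CPM for WT-shARF and 235 and 236 CPM for *Arf*-/--shSCR. In footprints the knockout libraries lay below and the WT-shARF libraries above both controls, and in RNA the knockout libraries lay below all others while WT-shARF overlapped the control. For the fibroblast markers too, the footprint sums of the knockout (39090 to 39360 CPM) lay below and those of WT-shARF (56840 to 58540 CPM) above the control (50640 to 53700 CPM). As a mean, the footprint sum of the interferon genes was 0.75 of the control in the knockout and 1.18 in WT-shARF, and whether the fibroblast share of the cells had a part in this was not tested. *Irgm1* alone gave 5.88% to 20.3% of the RNA sum and 19.7% to 27.9% of the footprint sum, and the top 5 genes of a library gave 47.9% to 62.2%. With *Irgm1* left out, the RNA sums of the knockout (203 to 234 CPM) and the control (231 to 258 CPM) overlapped, whereas the footprint sums of the knockout (184 to 190 CPM) stayed below the control (225 to 258 CPM). Per kilobase of coding sequence the median member had 1.53 CPM of RNA in WT-shSCR MEFs, against 2.93 CPM for the median of 19809 genes with a known coding length, and the highest member, *Irgm1*, had 42.7 CPM.

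**Figure D1:**
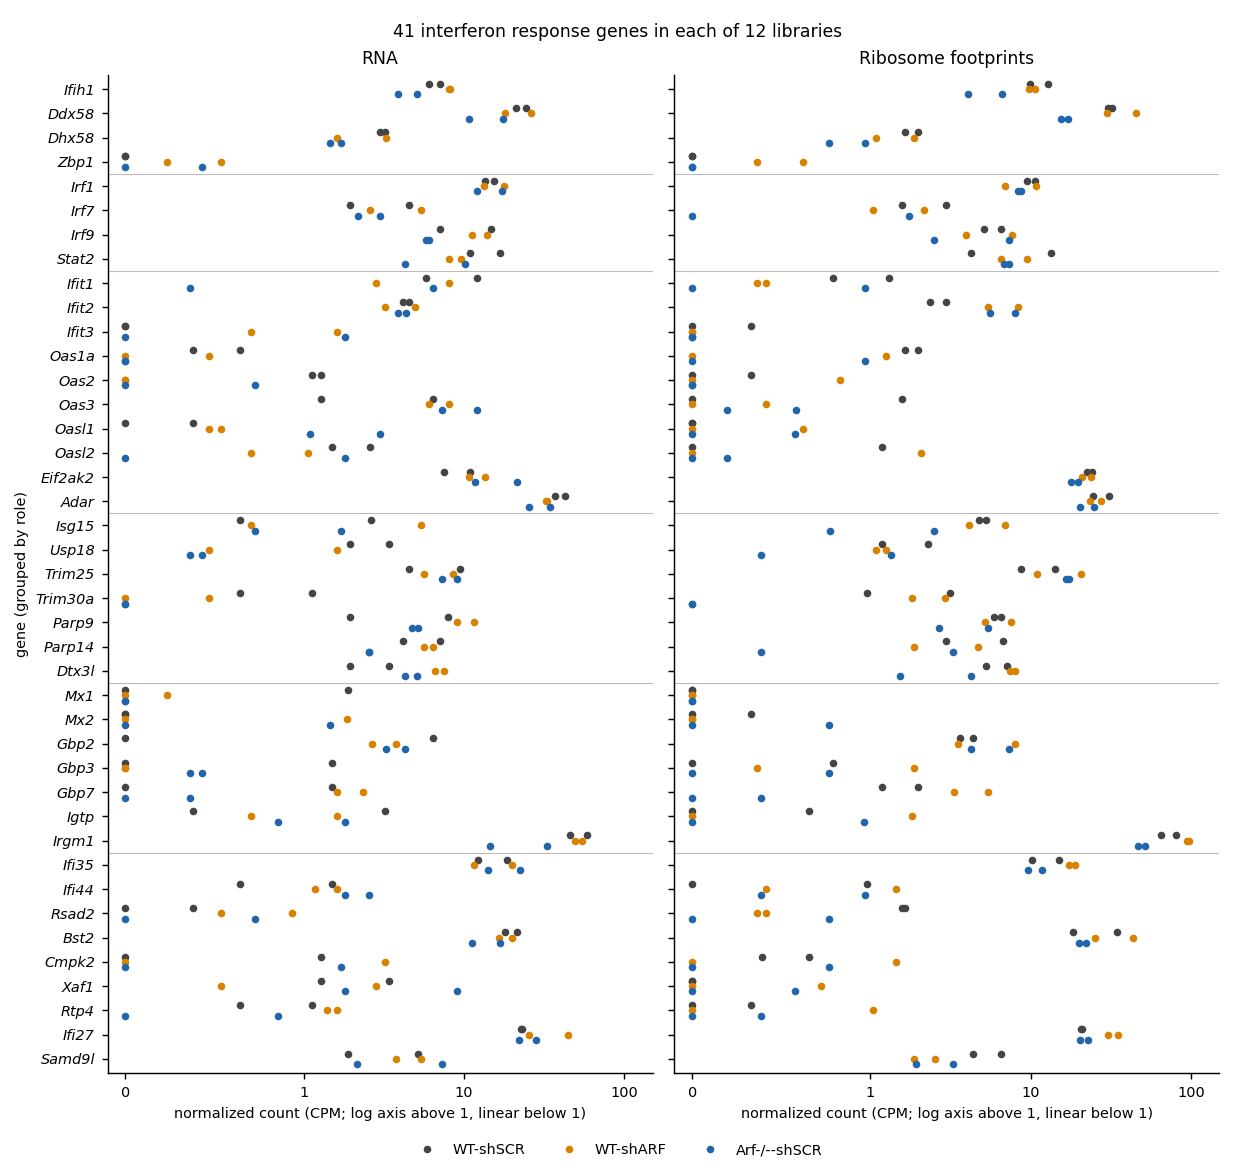
Each point is 1 library's normalized count (CPM, on an axis that is linear below 1 and logarithmic above) for 1 of the 41 genes, with RNA on the left, footprints on the right and genes grouped by role. The interferon targets *Ifit3*, *Mx1*, *Mx2*, *Oas2* and *Rsad2* stay at or below 1.88 CPM in every library, while *Irgm1* reaches 97.6 CPM of footprints in WT-shARF.

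Of the 41 genes, 23 had enough reads to be tested in at least 1 comparison and 17 were tested in all of them. The other 18 never passed edgeR's filter on low counts and together gave 272 of the 4330 RNA reads and 229 of the 6971 footprint reads of the members. They were *Dhx58* and *Zbp1* among the sensors, *Ifit3*, *Oas1a*, *Oas2*, *Oasl1* and *Oasl2* among the RNA-directed effectors, *Usp18* and *Trim30a*, the GTPases *Mx1*, *Mx2*, *Gbp3* and *Igtp*, and *Rsad2*, *Cmpk2*, *Ifi44*, *Xaf1* and *Rtp4*. None of the 18 had more than 21 reads in any RNA library or 14 in any footprint library. A count of 0 in a library allowed a level of up to 0.752 to 1.9 CPM in RNA and 0.582 to 1.18 CPM in footprints (3 counts of the total, counting error only), so differences among these genes were mostly not detectable at this depth. HTSeq leaves out reads that align to several places, and the *Ifit*, *Oas*, *Gbp* and *Trim30* families hold closely similar copies, so low counts of their members are uncertain. The interferon genes themselves were as scarce. *Ifnb1*, which encodes interferon beta, had 1 and 0 RNA reads in WT-shSCR, 4 and 0 in WT-shARF, and 0 and 0 in *Arf*-/--shSCR MEFs, with 0 footprints in all 6 libraries. A list of 21 interferon ligand genes held 6 to 12 RNA reads and 0 to 3 footprint reads per library, and none of them passed the filter.

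Loss of ARF by knockout was compared with the scrambled control first. In RNA, 1 of 20 members tested fell and 0 rose, where 3.99% of all 10659 genes tested fell and 3.94% rose. The gene that fell was *Irgm1*, which encodes an immunity-related GTPase that acts in autophagy and in the control of intracellular bacteria. In footprints, 2 of 19 members tested fell, *Ddx58* and *Irgm1*, and 0 rose, against 8.95% and 9.57% of 10737 genes. *Ddx58* encodes RIG-I, the helicase that senses viral RNA with a triphosphate end. The members that fell were thus 5% and 10.5% of those tested. At an unadjusted p under 0.05 there was 1 member in RNA (5%, against 22.3% of all genes) and there were 5 in footprints (26.3%, against 29.96% of all genes), of which only *Ifit2* was higher in the knockout. *Ifit2* passed the filter on low counts through the knockout, and *Isg15*, also among the 5, through WT-shSCR. The share in footprints is therefore not independent of the filter. Over all members tested, 12 of 20 fold changes were below 0 in RNA with a median log2 of -0.09 (-0.00 over all genes), and 15 of 19 were below 0 in footprints with a median of -0.29 (-0.00 over all genes). Among those not called, 11 of 19 and 13 of 17 were below 0. Standard errors of single members ran from 0.26 to 0.87 in RNA, and a change had to be well above its own standard error to be called. On the log2 scale *Ifit1* differed by -1.50 and *Oas3* by 1.16. Neither was called, with standard errors of 0.73 and 0.60, so changes of such sizes could be missed in these members. Here and below, called, rose and fell mean an adjusted p under 0.05 from edgeR's quasi-likelihood test over all genes tested, with Benjamini-Hochberg adjustment.

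*Irgm1* had the most RNA per kilobase of the members in WT-shSCR MEFs. The gene spans chr11:48861968-48871683 (GRCm38, minus strand). Its RNA level was 45.9 and 58.7 CPM in WT-shSCR, 54.7 and 49.2 CPM in WT-shARF, and 33.1 and 14.6 CPM in *Arf*-/--shSCR MEFs, from 91 and 34 reads. Both knockout libraries lay below every other library, and they differed from each other more than the WT-shSCR libraries did. The log2 fold change of RNA in the knockout was -1.10 (standard error 0.31, adjusted p = 0.031, edgeR). Without the second knockout replicate it was -0.64 (adjusted p = 0.23, edgeR), without the first it was -1.82, and with DESeq2 the adjusted p was 0.15. Without the first or the second WT-shSCR replicate the log2 fold change was -1.28 (adjusted p = 0.14, edgeR) and -0.92 (adjusted p = 0.29, edgeR), in fits that called 222 and 236 of all genes in place of 845. Its footprints were 80.6 and 65.0 CPM in WT-shSCR, 94.2 and 97.6 CPM in WT-shARF and 51.2 and 46.6 CPM in *Arf*-/--shSCR MEFs, so the 3 groups did not overlap. The log2 fold change of footprints in the knockout was -0.57 (standard error 0.18, adjusted p = 0.021, edgeR). DESeq2 gave an adjusted p of 0.15, and leaving out any of the 4 libraries raised edgeR's to between 0.086 and 0.27, with log2 fold changes of -0.71 to -0.39. Without a WT-shSCR library no gene at all was called in footprints (0 of 11391 and 0 of 11340), so the loss there says nothing about single members. In WT-shARF the footprints of *Irgm1* lay above the control. The footprint sum of the macrophage markers was 1019 to 1023 CPM in WT-shSCR and 423 to 527 CPM in WT-shARF. The part of macrophages in the values of *Irgm1* was not tested.

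*Ddx58* spans chr4:40203773-40239828 (GRCm38, minus strand). Its footprints were 30.5 and 32.3 CPM in WT-shSCR, 45.1 and 29.8 CPM in WT-shARF and 15.4 and 17.0 CPM in *Arf*-/--shSCR MEFs. The knockout libraries were the lowest of the 6, while WT-shARF lay on both sides of the control. The log2 fold change in the knockout was -0.94 (standard error 0.27, adjusted p = 0.013, edgeR). DESeq2 gave an adjusted p of 0.098, and leaving out any of the 4 libraries raised edgeR's to between 0.064 and 0.15, while the log2 fold change stayed between -1.01 and -0.86 (-0.93 with DESeq2). Its RNA was 21.1 and 24.5 CPM in WT-shSCR, 26.3 and 18.0 CPM in WT-shARF and 17.5 and 10.7 CPM in the knockout, again lowest in the knockout, with a log2 fold change of -0.67 that was not called (standard error 0.35, adjusted p = 0.27, edgeR).

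The knockout was also set against the libraries labelled WT-shARF, which asks whether the genotypes differ when both are labelled as lacking ARF. In footprints 3 of 20 members tested were lower in *Arf*-/--shSCR MEFs and 0 were higher, against 4.3% lower and 3.93% higher of 10941 genes. They were *Irgm1* (log2 fold change -0.97, standard error 0.15, adjusted p = 3.0e-04, edgeR), *Ddx58* (-1.18, standard error 0.25, adjusted p = 0.0054, edgeR) and *Gbp7*. *Gbp7* encodes a guanylate-binding protein, a large GTPase of the interferon response, and spans chr3:142530342-142550149 (GRCm38, plus strand). It had 15 and 16 footprint reads in WT-shARF, 6 and 3 in WT-shSCR and 2 and 0 in *Arf*-/--shSCR MEFs, which made the WT-shARF level 21.0 times that of the knockout with a 95% counting interval of 5.33 to 180.7 (exact Clopper-Pearson, counting error only; adjusted p = 0.017, edgeR). Its RNA was too low to be tested. *Gbp7* passed the filter on low counts only through WT-shARF, where it was high, and it was tested in no other comparison, so its call is not independent of the filter. DESeq2 called 3 of 21 members, these same genes. Without the second knockout library *Gbp7* was not called (adjusted p = 0.16, edgeR). Leaving out the first or the second WT-shARF library left 0 of 11365 and 1 of 11301 genes called, none of them a member, with *Irgm1* at -0.99 (adjusted p = 0.27, edgeR) and -0.94 (adjusted p = 0.28, edgeR). At an unadjusted p under 0.05 there were 9 of 20 members in footprints (45%, against 21% of all genes), *Gbp7* among them and all lower in the knockout. Of these, *Gbp7*, *Isg15* and *Dtx3l* passed the filter through WT-shARF and not through the knockout, so this share is not independent of the filter. In RNA 0 of 20 members were called, beside 2.57% of 10632 genes in either direction, 3 (15%, against 16.4% of all genes) had an unadjusted p under 0.05 (*Irgm1*, *Irf9* and *Parp9*, all lower in the knockout) and DESeq2 called 0 of the 8 members for which it gave an adjusted p. By group means 33 of the 41 members had fewer footprints in the knockout than in WT-shARF and 6 had more, where 50.2% of all genes with reads were lower. *Trim30a*, a regulator of inflammatory signalling, had 0 footprint reads in both knockout libraries, 3 and 8 in WT-shSCR and 5 and 14 in WT-shARF. It missed the filter in the comparisons of pairs of groups.

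**Figure D2:**
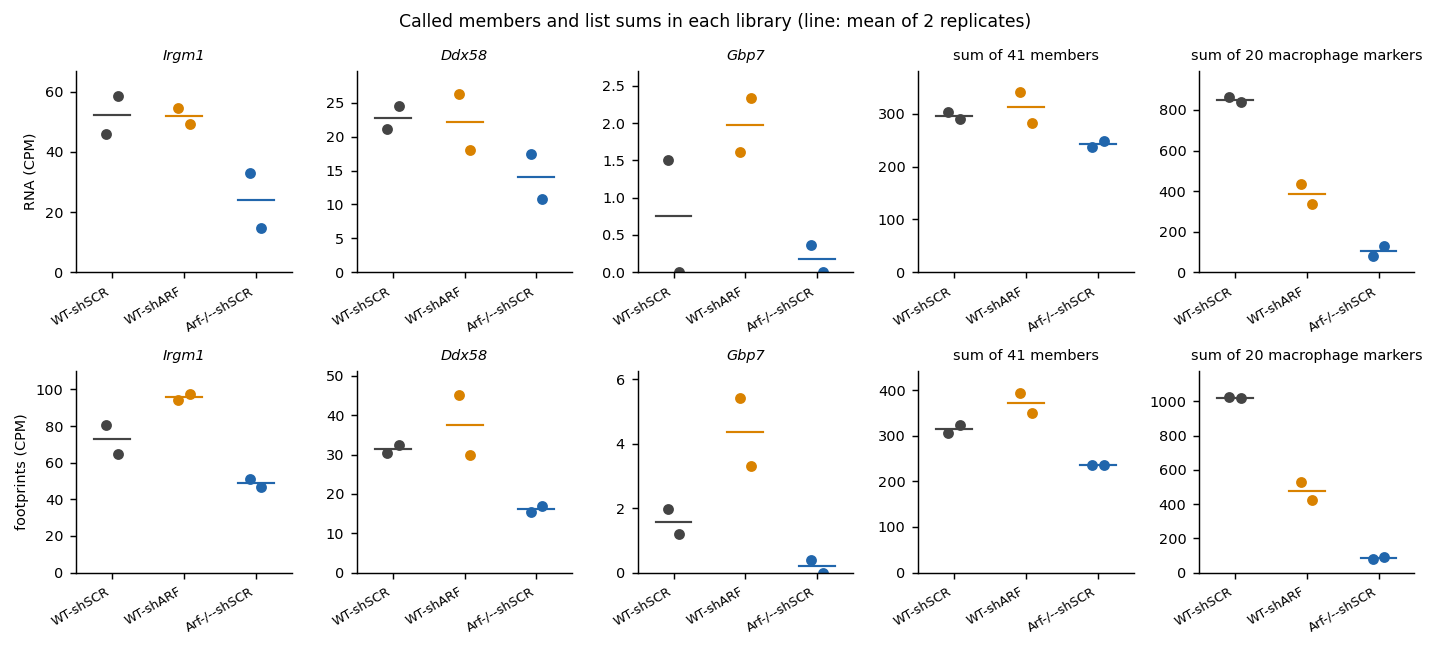
The rows show RNA and footprints, each point is 1 library's normalized count (CPM, axis from 0) and each line the mean of 2 replicates, for *Irgm1*, *Ddx58*, *Gbp7*, the sum of the 41 genes and the sum of 20 macrophage markers. The knockout points are lowest in the footprint panels, and the macrophage sum falls from 1019 to 1023 CPM of footprints in WT-shSCR to 76.8 to 93.0 CPM in the knockout, with WT-shARF in between.

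The promoters of the 3 called genes are shown because all of them hold the letters of an ISRE, written here as GAAANNGAAA and searched on both strands. *Isg15*, a classical ISRE target, was added after its values were seen. The windows are those of RefSeq on GRCm38.p6, from 250 bases before to 50 bases after the start site, and capitals mark matches to the ISRE or to the gamma-activated site (GAS, TTCNNNGAA), an element of interferon gamma targets.
Irgm1 promoter, chr11:48871371-48871670, minus strand: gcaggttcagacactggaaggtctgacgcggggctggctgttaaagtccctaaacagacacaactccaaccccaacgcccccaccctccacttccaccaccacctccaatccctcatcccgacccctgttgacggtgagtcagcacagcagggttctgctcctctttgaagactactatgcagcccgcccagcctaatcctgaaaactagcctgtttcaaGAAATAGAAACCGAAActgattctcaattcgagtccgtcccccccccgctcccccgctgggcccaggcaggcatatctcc
Ddx58 promoter, chr4:40239776-40240075, minus strand: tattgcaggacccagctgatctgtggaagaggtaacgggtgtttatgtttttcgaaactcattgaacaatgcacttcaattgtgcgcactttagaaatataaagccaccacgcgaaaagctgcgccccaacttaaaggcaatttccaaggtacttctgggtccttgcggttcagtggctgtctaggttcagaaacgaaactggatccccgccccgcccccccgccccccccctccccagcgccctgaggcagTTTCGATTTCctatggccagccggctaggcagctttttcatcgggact
Gbp7 promoter, chr3:142530086-142530385, plus strand: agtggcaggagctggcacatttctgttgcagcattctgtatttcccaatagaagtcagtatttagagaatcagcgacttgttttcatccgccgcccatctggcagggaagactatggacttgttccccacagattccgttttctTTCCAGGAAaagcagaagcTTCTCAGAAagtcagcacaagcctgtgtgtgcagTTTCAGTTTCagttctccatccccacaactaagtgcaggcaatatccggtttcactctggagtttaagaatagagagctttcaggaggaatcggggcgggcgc
Isg15 promoter, chr4:156200769-156201068, minus strand: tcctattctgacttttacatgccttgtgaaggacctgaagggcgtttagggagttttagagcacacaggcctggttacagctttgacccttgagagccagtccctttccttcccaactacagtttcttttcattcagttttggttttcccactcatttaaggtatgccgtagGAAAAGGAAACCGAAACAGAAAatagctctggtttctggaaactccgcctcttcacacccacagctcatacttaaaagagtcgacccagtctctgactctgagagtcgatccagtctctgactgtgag
In *Irgm1* a pair of overlapping ISRE matches begins 30 and 24 bases before the start site, in *Ddx58* a single match lies at base 3 after it, and *Gbp7* holds an ISRE match 53 bases before it and GAS matches at 106 and 87 bases. *Isg15* holds 3 overlapping matches. Windows were found for 31 of the 41 genes, and 17 of them (54.8%) held an ISRE match, against 3.99% of 27025 genes with a window. A GAS match was present in 9 of the 31 (29.0%) and in 9.55% of all genes. The shorter core GAAANNGAA was found in 21 of the 31 (67.7%) and in 9.76% of all genes. Overlapping matches were counted, and in *Bst2* a GAS match overlaps an ISRE match. ISRE matches were also found in *Oas1a*, *Ifit3*, *Igtp* and *Gbp3*, which had at most 5 reads in any RNA library. A match describes the sequence and is not evidence of binding, and a window without one says only that these letters are not in it.

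**Figure D3:**
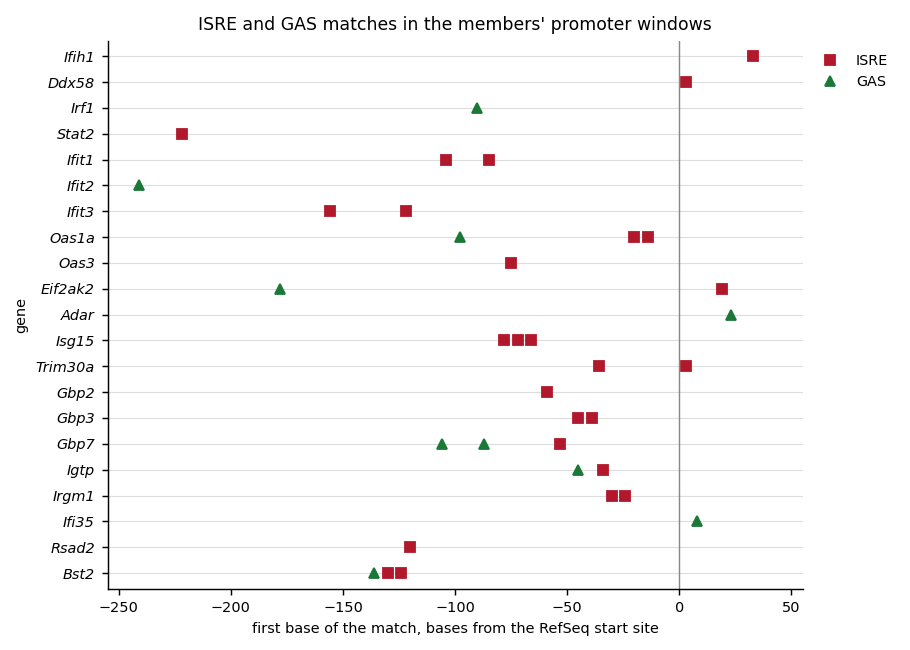
Squares mark ISRE matches and triangles GAS matches by the distance of their first base from the RefSeq start site (in bases, negative before it) in the 21 genes whose window holds either. Most ISRE matches lie before the start site, and *Irgm1*, *Isg15*, *Oas1a*, *Gbp3* and *Bst2* carry overlapping ones; *Trim30a* has 2 windows with 1 match each.

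Among the other sensors, *Ifih1*, which encodes MDA5, the sensor of long double-stranded RNA, had 12.8 and 9.85 CPM of footprints in WT-shSCR, 9.74 and 10.6 CPM in WT-shARF and 4.04 and 6.58 CPM in *Arf*-/--shSCR MEFs. The knockout libraries were again lowest, but the gene was not called (log2 fold change -1.08, standard error 0.48, unadjusted p = 0.031, adjusted p = 0.12, edgeR). Summed over the 4 sensors, footprints were 44.1 to 44.9 CPM in WT-shSCR, 42.9 to 56.3 CPM in WT-shARF and 20.2 to 24.6 CPM in the knockout, with *Ddx58* as the main part. None of the transcription factors was called. *Irf1*, an early factor that interferon gamma induces strongly, had 15.4 and 13.6 CPM of RNA in WT-shSCR, 17.7 and 13.4 CPM in WT-shARF and 12.01 and 17.2 CPM in the knockout, so all groups overlapped. *Irf9* and *Stat2*, which encode subunits of the factor that binds the ISRE, had log2 fold changes of RNA in the knockout of -0.93 (adjusted p = 0.28, edgeR) and -0.88 (adjusted p = 0.29, edgeR). *Irf7*, which amplifies interferon production, had 3 to 12 RNA reads per library and was tested only for translation efficiency.

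The RNA-directed effectors gave 0 calls in RNA or footprints. *Adar*, which converts adenosine to inosine in double-stranded RNA, was among the most abundant, with 36.9 and 42.6 CPM of RNA in WT-shSCR, 32.7 and 32.8 CPM in WT-shARF and 25.5 and 34.4 CPM in *Arf*-/--shSCR MEFs. Its coding sequence overlaps that of *Chrnb2* on the other strand. *Eif2ak2* encodes PKR, the kinase that stops translation when it binds double-stranded RNA. Its RNA was 7.53 and 10.97 CPM in WT-shSCR and 11.7 and 21.5 CPM in the knockout, and its footprints were 22.3 and 24.0 CPM against 17.7 and 19.7 CPM, so RNA was higher and footprints were lower in the knockout, neither of them called. *Ifit2*, whose product binds viral RNA, had 2.95 and 2.36 CPM of footprints in WT-shSCR, 5.41 and 8.29 CPM in WT-shARF and 5.58 and 7.93 CPM in the knockout. Both groups lay above the control they share, with log2 fold changes of 1.37 (standard error 0.66, adjusted p = 0.20, edgeR) and 1.34 (standard error 0.63, adjusted p = 0.15, edgeR). *Ifit2* passed the filter on low counts through WT-shARF in the one fit and through the knockout in the other, not through the control. These values are therefore not independent of the filter. *Ifit1*, which binds RNA caps that lack methylation, had 32 and 9 RNA reads in WT-shSCR and 1 and 15 in the knockout. Its log2 fold change was -1.50 (adjusted p = 0.24, edgeR), and -4.47 without the second knockout replicate, which left 1 read in the knockout. *Ifit1* passed the filter on low counts through WT-shSCR and not through the knockout, so these values are not independent of the filter.

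*Isg15* encodes the ubiquitin-like protein that interferon attaches to many targets, and *Usp18* the protease that removes it. *Isg15* had 16 and 12 footprint reads in WT-shSCR, 19 and 20 in WT-shARF and 13 and 4 in *Arf*-/--shSCR MEFs, whose libraries were the deepest. At 5.24 and 4.73, 6.86 and 4.14, and 2.501 and 0.774 CPM the knockout lay below the other groups, without a call (log2 fold change against WT-shSCR -1.58, standard error 0.74, adjusted p = 0.15, edgeR). *Isg15* passed the filter on low counts through WT-shSCR and not through the knockout, so this fold change is not independent of the filter. *Parp9* and *Dtx3l*, neighbours on chromosome 16 whose products work as a complex that joins ADP-ribose and ubiquitin, both had higher RNA in WT-shARF than in the control, 9.11 and 11.5 against 7.91 and 1.94 CPM for *Parp9* and 7.51 and 6.56 against 3.39 and 1.94 CPM for *Dtx3l*. The log2 fold change of *Dtx3l* was 1.29 (standard error 0.62, unadjusted p = 0.045, adjusted p = 0.23, edgeR). Its RNA passed the filter on low counts only through WT-shARF, where it was high, so this value is not independent of the filter. In footprints the knockout was the lowest group, with 1.54 and 4.26 CPM in the knockout against 5.24 and 7.09 CPM in WT-shSCR. *Trim25*, a ubiquitin ligase that acts on RIG-I, had log2 fold changes of footprints of 0.57 in the knockout and 0.43 in WT-shARF, neither of them called.

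Of the GTPases other than *Irgm1* and *Gbp7*, only *Gbp2* passed the filter, with log2 fold changes of 0.02 in RNA and 0.56 in footprints in the knockout and standard errors of 0.87 and 0.61. The antiviral *Mx1* had 5 RNA reads in 1 WT-shSCR library, 1 in a WT-shARF library and none elsewhere. The remaining effectors were not called either. *Bst2* encodes tetherin, which holds budding viruses at the cell surface. Its RNA was 18.1 and 21.3 CPM in WT-shSCR, 19.8 and 16.6 CPM in WT-shARF and 16.7 and 11.2 CPM in *Arf*-/--shSCR MEFs. Its footprints were 18.4 and 34.3 CPM in WT-shSCR, 43.3 and 25.1 CPM in WT-shARF and 22.1 and 19.9 CPM in the knockout (against WT-shARF, log2 fold change -0.67, standard error 0.26, unadjusted p = 0.018, adjusted p = 0.13, edgeR). *Ifi27*, a mitochondrial interferon target, had 20.7 and 20.9 CPM of footprints in WT-shSCR, 35.0 and 30.5 CPM in WT-shARF and 20.4 and 22.8 CPM in the knockout. Both WT-shARF libraries were above all others, with a log2 fold change against WT-shSCR of 0.65 (standard error 0.27, unadjusted p = 0.023, adjusted p = 0.13, edgeR). Its RNA was 23.0 and 22.6 CPM in WT-shSCR, 44.5 and 25.3 CPM in WT-shARF and 22.2 and 28.3 CPM in the knockout. *Ifi35* had 18.5 and 12.3 CPM of RNA in WT-shSCR, 19.8 and 11.5 CPM in WT-shARF and 14.2 and 22.3 CPM in the knockout, with no separation of the groups.

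**Figure D4:**
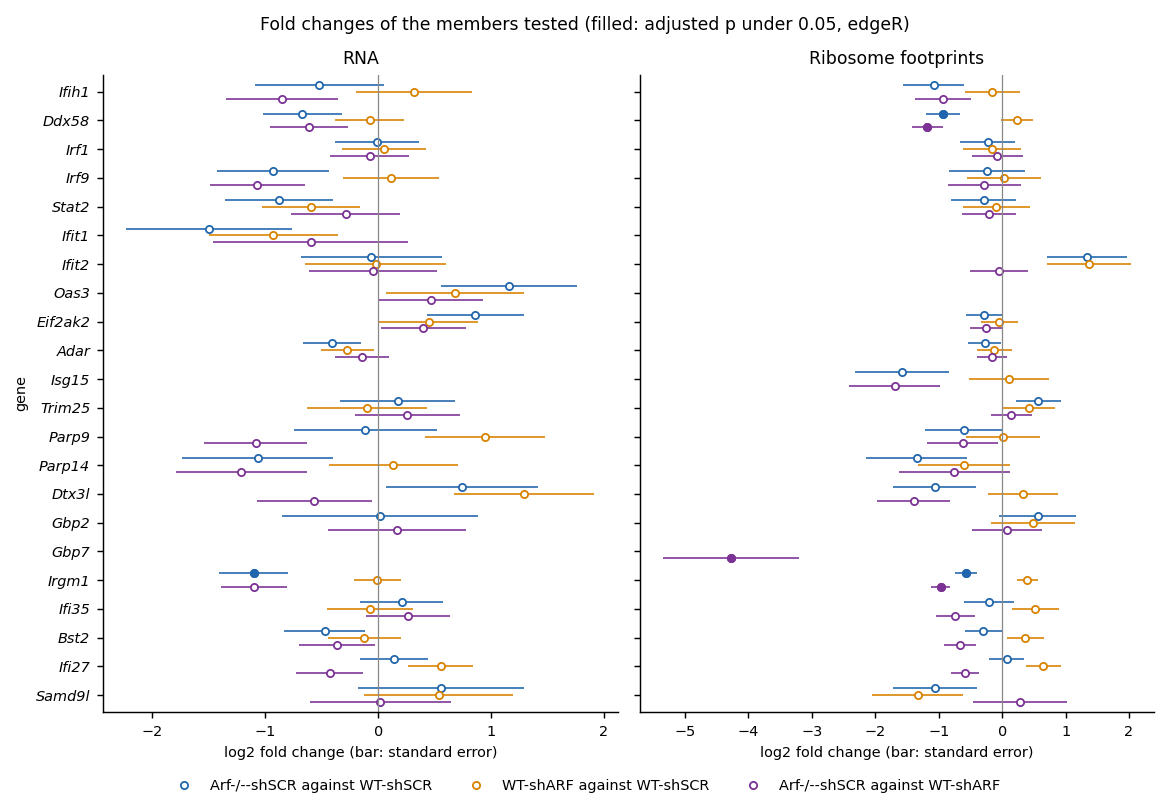
Points are log2 fold changes and bars standard errors from edgeR for the members tested, in RNA (left) and footprints (right), with a colour for each of the 3 comparisons and filled points for an adjusted p under 0.05. Filled points are found only for *Irgm1*, *Ddx58* and *Gbp7*, all to the left of 0, and the single bar of *Gbp7* lies farthest out at -4.28.

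Against WT-shSCR, the libraries labelled WT-shARF showed 0 calls among 19 members tested in RNA and 0 among 19 in footprints, beside 7.28% of 10503 and 11.1% of 10307 genes called in either direction. At an unadjusted p under 0.05 there were 1 in RNA (*Dtx3l*) and 3 in footprints (*Irgm1*, *Ifi27* and *Ifit2*, all higher), which is 5.26% and 15.8% of the members against 21.1% and 23.5% of all genes, and DESeq2 called 0 of the 2 and 0 of the 6 members for which it gave an adjusted p. *Dtx3l* and *Ifit2* passed the filter on low counts only through WT-shARF, where they were high, so these values are not independent of the filter. *Irgm1* footprints were higher in both WT-shARF libraries than in both controls (log2 fold change 0.40, standard error 0.16, adjusted p = 0.12, edgeR), while its RNA differed by -0.01. The median log2 fold change of the members was 0.05 in RNA and 0.11 in footprints, against standard errors of single members of 0.21 to 0.66 in RNA.

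Translation efficiency (TE), the change of footprints relative to the change of RNA, was tested as an interaction term in a model of RNA and footprint libraries together, 8 in each comparison. It was called for 0 of 21 members in the knockout and 0 of 22 in WT-shARF, where 0.194% of 11314 and 0.0354% of 11289 genes were called. At an unadjusted p under 0.05 there was 1 member of 21 (4.76%, against 6.83% of all genes) in the knockout and 0 of 22 (against 6.65%) in WT-shARF, and DESeq2 gave no member an adjusted p. The 1 member in the knockout was *Eif2ak2*, with a log2 change of TE of -1.19 (standard error 0.50, unadjusted p = 0.027, adjusted p = 0.63, edgeR). For *Irgm1* the log2 change was 0.50 (standard error 0.37) in the knockout and 0.41 (standard error 0.27) in WT-shARF. Standard errors reached 1.93, so most changes of TE in these genes were not detectable at this depth.

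Footprints were also set against RNA within the same groups, over all 12 libraries, to describe how heavily each mRNA was loaded with ribosomes. This comparison was chosen after the counts were seen. Of 22 members tested, 5 had more footprints than RNA and 5 had fewer, beside 29.4% and 30.6% of 11603 genes. More footprints than RNA were found for *Trim25* (log2 1.04, standard error 0.23), *Irgm1* (0.89, standard error 0.14), *Eif2ak2* (0.85, standard error 0.21), *Bst2* (0.68, standard error 0.17) and *Ddx58* (0.57, standard error 0.16). Fewer were found for *Oas3* (-3.84, standard error 0.64) and *Ifit1* (-3.00, standard error 0.56), and for *Irf9*, *Irf1* and *Adar*, from -0.72 to -0.36. *Oas3*, an oligoadenylate synthetase whose product activates RNase L, had 108 RNA reads but 10 footprint reads over all libraries, and *Ifit1* had 84 and 14. Both passed the filter on low counts only through RNA, where they were high, so their calls are not independent of the filter. Their log2 values lay at percentiles 2.94 and 4.22 of all genes. The footprints were cut with RNase T1, which cleaves after G, while RNA was fragmented by alkali, and the part of base composition in these values was not tested.

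**Figure D5:**
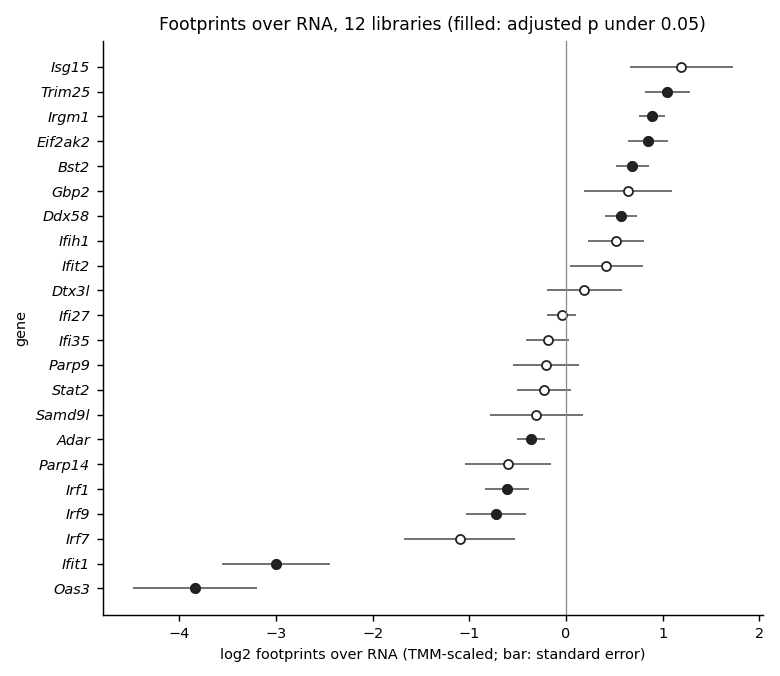
Points are log2 footprints over RNA for the 22 members tested over 12 libraries, bars are standard errors from edgeR and filled points have an adjusted p under 0.05. *Oas3* and *Ifit1*, which passed the filter on low counts only through RNA, lie far to the left. The other members range from -1.10 for *Irf7* to 1.19 for *Isg15*.

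The rest of the pathway was read from lists of its other genes, whose counts stand against the shares of all genes given above, in the knockout 3.99% lower and 3.94% higher in RNA and 8.95% lower and 9.57% higher in footprints. *Ifnar1* and *Ifnar2*, the receptor chains, were expressed throughout. *Ifnar1* RNA was 67.4 and 57.4 CPM in WT-shSCR, 48.8 and 42.9 CPM in WT-shARF and 53.5 and 42.5 CPM in *Arf*-/--shSCR MEFs. The gene was not called in any comparison. Of 12 receptor and JAK-STAT genes tested of 13, 0 were called by edgeR in RNA of the knockout (3 at an unadjusted p under 0.05) and 2 fell in its footprints, *Tyk2*, the receptor's kinase (25.6 and 14.6 CPM in WT-shSCR, 8.66 and 8.70 CPM in the knockout, log2 fold change -1.21, adjusted p = 0.019, edgeR), and *Ifnar2* (34.7 and 39.8 against 23.9 and 22.1 CPM, -0.68, adjusted p = 0.040, edgeR). In WT-shARF *Ifngr1*, a chain of the interferon gamma receptor, fell in RNA and footprints, from 37.0 and 42.2 to 17.0 and 20.5 CPM in footprints (-1.06, adjusted p = 0.0064, edgeR), and *Stat3* fell in footprints (-0.57, adjusted p = 0.0077, edgeR).

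Of 23 genes upstream of interferon production, in the knockout 1 of 20 tested fell in RNA and 0 rose, and 3 of 21 fell and 1 rose in footprints. *Tlr8* fell in both assays, and *Tlr13* and *Irf8* fell in footprints. In these fits the genes passed the filter on low counts only through WT-shSCR, where they were high, so their calls are not independent of the filter. For *Tlr8* RNA this also holds in WT-shARF against WT-shSCR. *Tlr8* and *Tlr13* encode endosomal sensors of RNA and *Irf8* a transcription factor of myeloid cells. *Tlr13* had 29 and 29 footprint reads in WT-shSCR, 5 and 16 in WT-shARF and 3 and 4 in *Arf*-/--shSCR MEFs, and *Tlr8* had 20 and 13, 3 and 0, and 5 and 0. The RNA of *Tlr13* did not follow its footprints, with 9.79 and 4.52 CPM in WT-shSCR, 12.9 and 11.5 CPM in WT-shARF and 14.2 and 12.4 CPM in the knockout, and its TE fell in the knockout by 4.73 on the log2 scale (standard error 0.80, adjusted p = 0.012, edgeR). The macrophage markers given above fell in the same comparisons, and their part in these values was not tested. In WT-shARF, 1 of 21 rose and 1 fell in RNA (*Traf3*, a signalling adaptor, log2 fold change 1.11, and *Tlr8*), and 1 rose and 3 fell in footprints. Of 59 further interferon-stimulated genes, 26 were tested in each assay of the knockout against WT-shSCR. In RNA 2 fell (7.69%) and 0 rose, with a median log2 fold change of -0.44 (-0.00 over all genes). In footprints 5 fell (19.2%) and 1 rose (3.85%), with a median of -0.42 (-0.00 over all genes). The smallest adjusted p among those that fell belonged to *B2m*, the light chain of MHC class I (footprints 257.3 and 287.5 CPM in WT-shSCR, 168.7 and 193.0 CPM in the knockout, log2 fold change -0.58, adjusted p = 3.7e-04, edgeR), followed by *Lgals3bp* (-1.29, adjusted p = 0.0013, edgeR) and *Tap1*, a peptide transporter (-1.81, adjusted p = 0.0033, edgeR). The other two, named after their values were seen, were *Psmb8* and *Psmb10*, subunits of the proteasome form that interferon induces. *Psmb8*, with 21 and 19 footprint reads in WT-shSCR and 3 and 9 in the knockout, passed the filter only through WT-shSCR. *Zc3hav1*, the antiviral zinc finger protein ZAP, rose in the knockout (footprints 30.8 and 24.4 against 42.5 and 49.3 CPM, log2 fold change 0.74, adjusted p = 0.015, edgeR) and in WT-shARF (52.7 and 53.0 CPM, 0.93, adjusted p = 0.0047, edgeR), comparisons that share the WT-shSCR libraries. In WT-shARF 2 of 26 rose and 0 fell in each assay. Between the knockout and WT-shARF, *Ifngr1* footprints were higher in the knockout (0.99, adjusted p = 0.0076, edgeR) and *Lgals3bp* footprints lower (-1.42, adjusted p = 0.0023, edgeR).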

How the data were processed

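RNA and ribosome footprints were sequenced from the same 3 groups. Per the methods and labels, the authors clipped adapters, collected molecular barcodes with UMI-tools, aligned reads to mm10 (Bowtie2, TopHat) and counted uniquely aligned reads on coding sequence with HTSeq; removal of duplicates is not named. The deposited files hold whole-number counts, unscaled, 1578627 to 3989908 per RNA library and 2544319 to 5157572 per footprint library. Rows naming no gene held 94.74% to 96.83% of RNA reads and 57.12% to 64.82% of footprint reads and were left out.

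Each comparison was fitted on all genes of the 4 libraries concerned (8 for TE) with edgeR 4.0.16 in R 4.3.3: TMM factors, filterByExpr, quasi-likelihood test, Benjamini-Hochberg adjustment, threshold 0.05. An exact permutation test of 2 against 2 libraries cannot go below p = 0.33. Intervals and limits cover counting error only. Promoter motifs were searched in RefSeq windows with Python 3.11.15. The scripts were tested on simulated data.

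Members, lists and tests were chosen with earlier results of these data known. By rule, values per library were given for called members and for the 5 uncalled members with the most RNA per coding length in WT-shSCR (*Bst2*, *Ifi27*, *Ifi35*, *Irf1*, *Adar*), and at most 4 called genes were named per pathway list; *Ifih1*, *Eif2ak2*, *Ifit1*, *Ifit2*, *Isg15*, *Parp9*, *Dtx3l*, *Trim30a* and *Mx1* were added after their values were seen. Alternatives were DESeq2 1.42.0, RLE or upper quartile factors, other filters, a threshold of 0.01, all 3 conditions in one fit, a replicate block and leaving out each library. Lists of endothelial, lymphoid and plasmacytoid dendritic markers summed to at most 39.9, 5.9 and 66.7 CPM. The last of these sums was in effect that of *Tcf4*, since *Ccr9* had 0 reads in every library and *Siglech* 1 read in a single library.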

Additional observations from a re-analysis of the deposited data

Results flagged for a closer look

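Footprints of 3 members differed between *Arf*-/--shSCR MEFs and the libraries labelled WT-shARF, in which *Cdkn2a* counts were higher than in the control, when that difference was tested directly with edgeR. The log2 fold change was -0.97 for *Irgm1*, -1.18 for *Ddx58* and -4.28 for *Gbp7*, the last from 2 reads in the knockout against 31 in WT-shARF. All 3 were lower in both knockout libraries than in both WT-shARF libraries, and without the one or the other WT-shARF library, fits in which 0 and 1 of all genes were called, the fold changes kept their direction. *Gbp7* passed the filter on low counts only through WT-shARF.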

How the results depend on the processing

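Counts of called members were small. For RNA in *Arf*-/--shSCR against WT-shSCR MEFs the count of 1 became 0 at an adjusted p under 0.01 and with DESeq2, and 0 to 1 when a library was left out. For footprints in the same comparison the count of 2 became 0 at an adjusted p under 0.01, with DESeq2 and without any library. For RNA in the knockout against WT-shARF the count of 0 became 1 with no filter and with all 3 conditions in one fit, and 0 to 1 when a library was left out. For footprints in that comparison the count of 3 became 0 without either WT-shARF library and was otherwise up to 3. Leaving out a WT-shSCR library from knockout footprints left 0 genes called among all tested, and leaving out a WT-shARF library from the comparison with WT-shARF left 0 and 1, so these losses do not bear on single members. The cause of the other changes was not tested.

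With the replicate number as a replicate block, *Irgm1* RNA in the knockout against WT-shARF was called (log2 fold change -1.20, adjusted p = 0.045, edgeR), which made that count 1, and no other call of a member changed. Libraries with the same number did not deviate together (correlations of -0.03 to 0.02 between groups), so the numbers do not pair them.

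No called member changed sign under any alternative run. The median log2 fold change of the members stayed below 0 in RNA and footprints of the knockout in all of them, while that of WT-shARF against WT-shSCR reached -0.01 in RNA and -0.00 in footprints when single libraries were left out. Depth limits the rest: 18 of 41 members were too low to be tested.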
